A study of Mus musculus with 4 samples.

Results

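The 10 immediate early response genes examined here were Egr1, Egr2, Egr3, Nr4a1, Nr4a3, Fos, Jun, Junb, Dusp5 and Dusp6. Chromatin accessibility around them was read from ATAC-seq peak lists of mouse thymocytes. ATAC-seq uses a transposase that cuts accessible DNA and tags the cut ends for sequencing. A peak belonged to a gene when its midpoint lay inside the gene span on mm10 or within 30 kb of either end. By this rule the 10 windows held 173 of the 182042 deposited peaks, and all 10 genes were found in the gene table of 21887 protein-coding genes. Peaks that shared at least 1 bp were merged across lists into regions, of which the windows held 70 of 107621. Peaks with a midpoint 1000 bp or less from either end of the gene span are called gene-end peaks, and all others distal. Positions before and after a span are given by rising coordinate, whatever the strand of the gene.

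The study followed receptor gene enhancers in developing lymphocytes. The samples used were sorted from the thymus of C57BL/6J mice, wild type and 5 to 7 weeks old. The later stage was CD4+CD8+ double-positive (DP) cells, with 2 samples. The earlier stage was CD4-CD8- double-negative (DN) cells sorted as CD25+ and CD44- or CD44+, also with 2 samples. The labels name no treatment, and all 4 samples are wild type. The labels do not say that the 2 samples of a stage are from different animals, and their spread may be technical. The deposited lists held 39718 and 70385 peaks in DP 1 and DP 2, against 38808 and 33131 peaks in DN 1 and DN 2. Read counts are not part of the lists. The depth is therefore unknown, and the absence of a peak may mean a closed site or too few reads. Gene ends were held less often in the DN lists. Of all genes, 46.0% and 48.9% had a gene-end peak in DP 1 and DP 2, against 36.8% and 25.9% in DN 1 and DN 2. In bulk samples, fewer cells with an open site and less open chromatin per cell cannot be told apart.

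The labels were checked against marker genes with a peak inside the gene or within 1000 bp of it. Of 3 DP markers (Cd4, Cd8a and Cd8b1), 3 had a peak in each DP list, against 1 (Cd4) in DN 1 and 0 in DN 2. Of 4 markers of CD25+ DN cells (Il2ra, Kit, Il7r and Hes1), 4 and 3 had a peak in DP 1 and DP 2, against 4 and 2 in DN 1 and DN 2. Il2ra, which encodes the CD25 used in the sort, had no peak in DN 2. Of 4 pan-T genes (Cd3e, Lck, Thy1 and Bcl11b), 4 had a peak in each DP list, against 2 in each DN list. Markers of other cells had a peak as often or more often in DP lists: 1 and 2 of 3 B cell genes, 1 and 1 of 4 myeloid genes, 1 and 2 of 4 erythroid genes and 3 and 1 of 4 stromal genes in DP 1 and DP 2. In DN 1 and DN 2 these numbers were 1 and 1, 0 and 0, 0 and 1, and 1 and 1. Ms4a1 of the B cell list, and Csf1r, Lyz2 and Adgre1 of the myeloid list, had no peak in any list. The same held for Hbb-bt and Gata1 of the erythroid list and Epcam of the stromal list. The part of other cell types in the results below was not tested.

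Immediate early genes are transcribed within minutes of a stimulus without new protein synthesis. In thymocytes they respond to signals of the pre-T cell receptor and the T cell receptor that pass through Ras, the kinase ERK and calcium. EGR proteins are zinc finger transcription factors, NR4A proteins are orphan nuclear receptors, and FOS and JUN proteins pair to form AP-1. DUSP5 and DUSP6 are phosphatases that act on ERK and so limit the signal that induces them. Serum response factor, which binds the CArG box, and CREB-type factors, which bind the cyclic AMP response element, are long-known activators of such genes.

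Promoters of 4 genes are shown because their starts differed in which lists held them. The starts of Fos and Nr4a1 had a peak in both DP lists and in neither DN list. The start of Dusp5 had one in both DP lists and DN 1. The start of Jun had one in all 4 lists. The sequences are the 250 bases before the start site from RefSeq on GRCm38, the same assembly as mm10, written 5′ to 3′ along the gene. Capitals mark the core of the cyclic AMP response element, TGACG on either strand, the CArG box (named only, searched on both strands) and TATAAA on either strand. None of the marked stretches overlapped another. The Fos sequence lies at chr12:85473640-85473889 on the plus strand, Nr4a1 at chr15:101266596-101266845 on the plus strand, Dusp5 at chr19:53528895-53529144 on the plus strand and Jun at chr4:95052223-95052472 on the minus strand.
Fos: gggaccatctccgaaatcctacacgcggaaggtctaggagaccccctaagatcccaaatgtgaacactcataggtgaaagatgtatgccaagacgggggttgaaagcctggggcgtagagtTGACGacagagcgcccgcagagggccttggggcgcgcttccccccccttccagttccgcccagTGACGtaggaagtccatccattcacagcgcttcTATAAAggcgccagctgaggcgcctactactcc
Nr4a1: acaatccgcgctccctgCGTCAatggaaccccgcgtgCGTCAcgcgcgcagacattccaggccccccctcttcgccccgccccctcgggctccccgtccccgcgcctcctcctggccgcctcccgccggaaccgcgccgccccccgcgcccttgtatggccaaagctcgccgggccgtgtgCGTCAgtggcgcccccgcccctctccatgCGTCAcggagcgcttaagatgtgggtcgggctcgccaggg
Dusp5: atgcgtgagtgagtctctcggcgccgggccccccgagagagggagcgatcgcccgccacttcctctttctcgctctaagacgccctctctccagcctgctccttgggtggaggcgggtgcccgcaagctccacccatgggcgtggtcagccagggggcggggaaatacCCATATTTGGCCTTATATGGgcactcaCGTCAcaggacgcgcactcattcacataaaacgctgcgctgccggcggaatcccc
Jun: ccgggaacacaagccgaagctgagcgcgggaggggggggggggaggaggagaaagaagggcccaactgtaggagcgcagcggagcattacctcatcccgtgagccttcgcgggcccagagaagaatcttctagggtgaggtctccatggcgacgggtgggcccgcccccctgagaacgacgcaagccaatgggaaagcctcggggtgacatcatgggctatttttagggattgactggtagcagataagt

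Listed start sites were at hand for 8 of the 10 genes; Egr1 and Egr3 are named only. The 250 bases before a listed start held TGACG in 6 of the 8 (Egr2, Nr4a1, Nr4a3, Fos, Junb and Dusp5), against 22.6% of the 17492 protein-coding genes with a listed start. Nr4a1 and Nr4a3 each held 4 copies. The copies nearest to the start of Nr4a1 lay 40 and 69 bases before it. Fos held 2 copies, with first bases 129 and 66 bases before the start, and a TATAAA whose first base lay 33 bases before it. Dusp5 held 2 CArG boxes side by side, the first bases of which lay 82 and 72 bases before the start, and 1 TGACG. Egr2 held a CArG box before 4 of its 5 listed starts, and 1.6% of genes with a listed start held one. Jun and Dusp6 held no match to these 3 motifs in this window. The shares of all genes were not matched for base composition or for the number of listed starts, of which Egr2 has 5. The matches describe letters only and say nothing of binding.

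DP lists held more peaks around these genes than DN lists. The 10 windows together held 51 and 69 peaks in DP 1 and DP 2, against 33 and 20 peaks in DN 1 and DN 2. The mean per gene was 6 ± 1.27 peaks in DP and 2.65 ± 0.92 peaks in DN lists (SD, n = 2 each). Scaled to list length, the windows held 12.8 and 9.80 of every 10000 peaks in DP 1 and DP 2, against 8.50 and 6.04 in DN 1 and DN 2. Both DP values thus stayed above both DN values, but the gap between DP 2 and DN 1 was small. In 7 of the 10 genes every DP list held more peaks than every DN list, against 36.4% of all 21887 genes. In 0 of the 10 genes did every DN list hold more than every DP list, against 3.3% of all genes. The median difference, DP minus DN, was 3.25 peaks for the 10 genes and 1 peak for all genes. The median number of peaks was 4 and 6 in DP 1 and DP 2 and 3 and 2 in DN 1 and DN 2. Over all genes it was 2 and 3 in DP 1 and DP 2 and 2 and 1 in DN 1 and DN 2. Genes with few peaks have less room to differ, and the shares of all genes were not matched for number of peaks. With 2 lists against 2, the two-sided exact permutation test cannot give p below 0.333, so no single gene could pass a threshold of p = 0.05. When every list was limited to the length of the shortest, the count was still 7 genes, against 30.6% of all genes. On the scale of peaks per 10000 it was 6 genes, against 26.5%. On that scale, and at equal list length, 1 of the 10 genes, Egr2, had more in every DN list than in every DP list, against 15.3% of all genes per 10000 peaks and 7.82% at equal length.

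**Figure D1:**
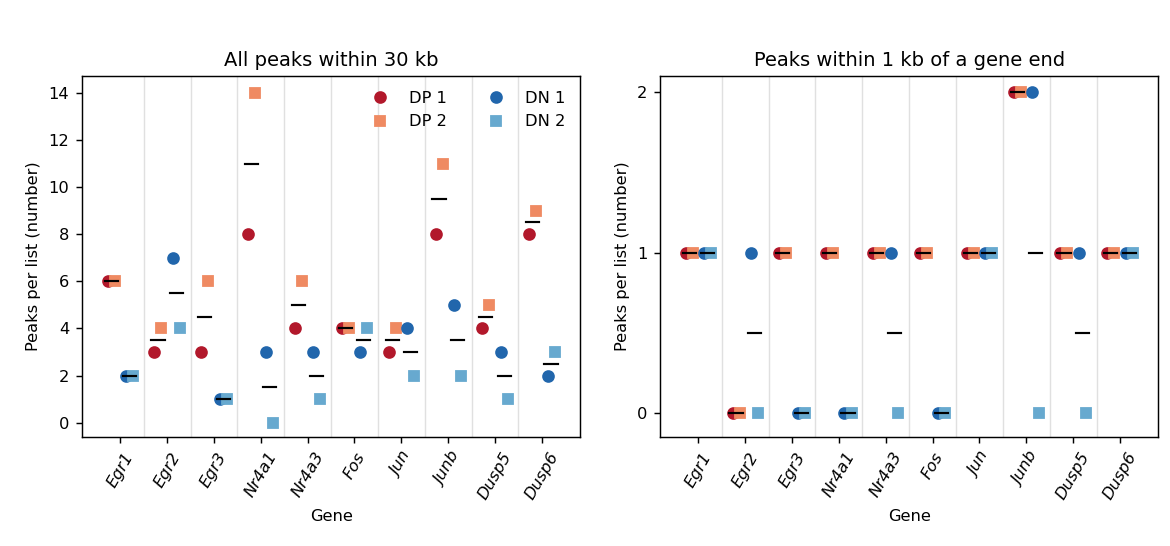
Number of peaks per list (vertical axis) for each of the 10 genes (horizontal axis), for all peaks within 30 kb on the left and for peaks within 1 kb of a gene end on the right. Red and orange symbols are DP 1 and DP 2, dark and light blue symbols are DN 1 and DN 2, and each black bar is the mean of 2 lists. Nr4a1 had 8 and 14 peaks in the DP lists against 3 and 0 in the DN lists, while Egr2 had 3 and 4 against 7 and 4.

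**Figure D2:**
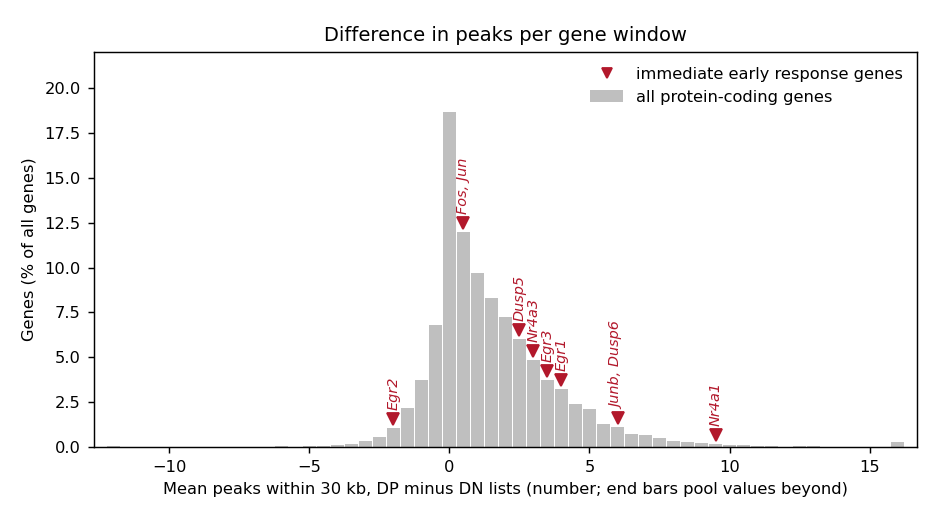
Distribution over all 21887 protein-coding genes (grey bars, percent of genes) of the mean number of peaks within 30 kb in DP lists minus that in DN lists. Red triangles place the 10 genes, which ran from -2 for Egr2 to 9.5 for Nr4a1. The grey distribution itself leans to the DP side, with a median of 1.

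Among the regions, 16 of the 70 were held by both DP lists and by neither DN list (DP-only), and they lay in 8 of the 10 windows. That is 22.9% of the regions, against 10.5% of the 65308 regions within 30 kb of any protein-coding gene and 7.44% of all regions. A further 15 regions, in 9 windows, were held by all 4 lists. That is 21.4%, against 10.8% of regions near genes. Regions held by both DN lists and by neither DP list (DN-only) numbered 0, against 2.62% of regions near genes. A single list held 26 regions, or 37.1%, against 61.4% of regions near genes, and 15 of the 26 came from DP 2. The remaining 13 were held by other combinations. The usual combination among these 13 was DP 1, DP 2 and DN 1, with 10 regions in 5 windows (14.3%, against 7.29% of regions near genes). The count of DP-only regions depended on single lists. It could hardly fall when a list was left out, since the rule is then looser. Without DP 1 it was 31, or 48.4% of the regions, against 45.6% of regions near genes. Without DN 1 it was 26, or 40.0%, against 20.0%. Without DP 2 it was 23, or 41.1%, against 30.1%. Without DN 2 it was 17, or 24.3%, against 12.9%, and 5 regions then counted as DN-only and 25 as held by every list. Each share for the 10 genes was above the share near genes, but without DP 1 both shares were nearly equal. With the lists as deposited, regions of all lists were also more frequent than near genes (21.4% against 10.8%), and single-list regions less frequent. The DP-only shares were not matched for this.

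Regions held by all 4 lists were wider, with a median of 950 bp, than DP-only regions, with a median of 600 bp, and regions from a single list, with a median of 450 bp. A merged region can only grow with the number of lists that hold it. A midpoint within 1000 bp of the end of another protein-coding gene was found for 8 of the 59 distal regions. Of the other 51, which lay away from every gene end, 10 were DP-only (19.6%) and 11 were held by all lists (21.6%). Among the 52834 regions near genes that lay away from every gene end, these shares were 8.86% and 5.52%. The peak farthest inside the 30 kb limit lay 29777 bp from Nr4a1, and the nearest one outside lay 30391 bp from Dusp5, both in DP 2. The gene-end peak farthest from its end lay 906 bp away at Egr2, and the nearest distal peak lay 1053 bp from an end of Jun, both in DN 1.

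**Figure D3:**
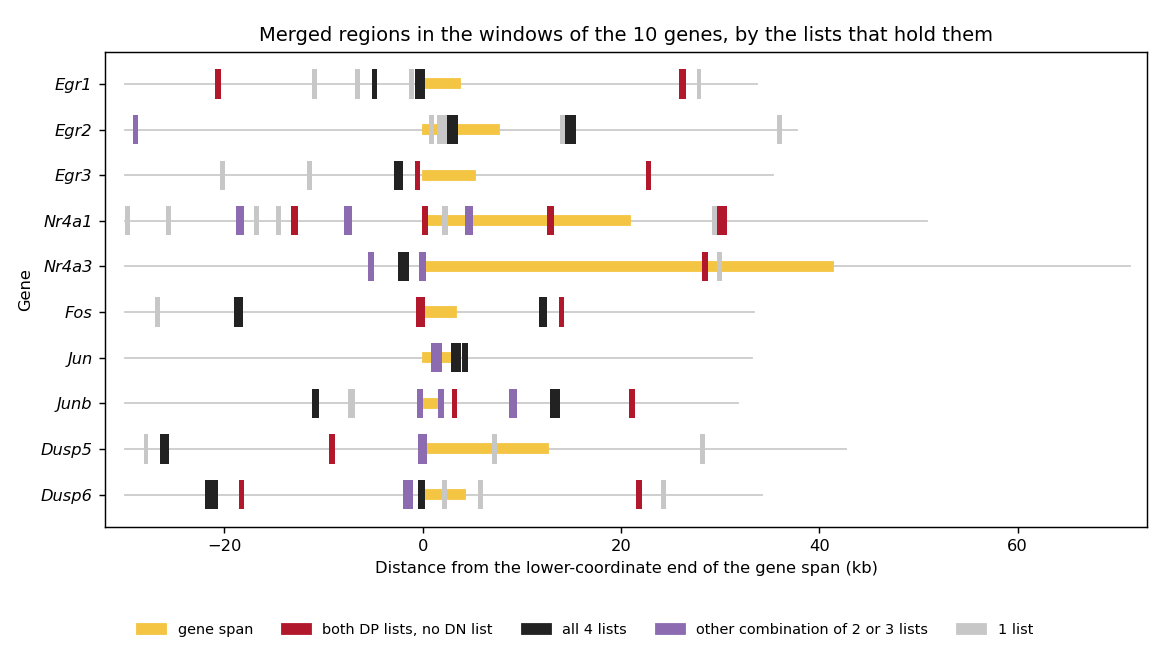
Merged regions in the windows of the 10 genes, placed by the distance in kb from the lower-coordinate end of the gene span (yellow). Each bar is a region, drawn at least 0.5 kb wide, and its colour gives the lists that hold it: red for both DP lists and no DN list, black for all 4 lists, purple for other combinations of 2 or 3 lists and grey for 1 list. Red bars lie in every window except those of Egr2 and Jun, and no window holds a region of both DN lists alone.

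At gene ends, 3 genes had a peak in all 4 lists (Egr1, Jun and Dusp6), against 21.7% of all genes. Of the 21887 genes, 9779 had no gene-end peak in any list, against 0 of the 10, and the gene-end shares include them. Among genes with a gene-end peak in some list, each such share of all genes would be larger. In 3 genes (Egr3, Nr4a1 and Fos) both DP lists and neither DN list held the gene end, against 9.62% of all genes. The reverse, both DN lists and neither DP list, was found for 0 of the 10 genes, against 0.813% of all genes. In 3 more (Nr4a3, Junb and Dusp5) both DP lists and DN 1 held it, against 10.5% of all genes. Egr2 had a gene-end peak in DN 1 alone. A gene end was held in 9 of 10 genes in each DP list, against 7 in DN 1 and 3 in DN 2. Over all genes these shares were 46.0% and 48.9% in DP 1 and DP 2, against 36.8% and 25.9% in DN 1 and DN 2, so the share in DN 2 was near that of all genes. Without DN 1, 6 of the 10 genes counted as having a DP-only end, against 20.1% of all genes. The span of 2 genes begins well before a listed start, so the starts themselves were also examined. By listed start, Egr2, Jun and Dusp6 were held by all 4 lists, Nr4a3, Junb and Dusp5 by both DP lists and DN 1, and Fos and Nr4a1 by both DP lists alone. Of the 17492 genes with a listed start, all 4 lists held the start of 23.4%, both DP lists and DN 1 that of 11.1%, and both DP lists alone that of 10.1%.

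**Figure D4:**
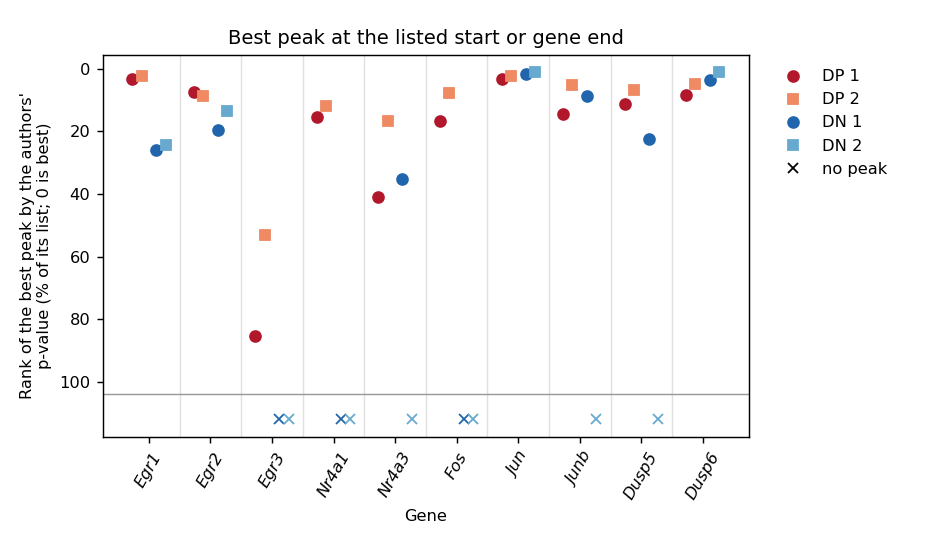
Rank of the best peak at the listed start, or at the gene end for Egr1 and Egr3, within its own list by the authors' p-value, in percent of the list with the best at the top. Symbols are as in the plot of peaks per list, and crosses below the line mark lists with no such peak. Ranks can be read only within a list, since the lists differ in length. Jun ranks near the top in all 4 lists, and Egr3 stands at 85.4% of DP 1 and 53.0% of DP 2.

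Egr1 (chromosome 18, 34861207 to 34864956), the best known EGR factor of activated lymphocytes, had 6 peaks in each DP list, against 2 peaks in each DN list. The groups did not overlap, and the numbers were equal within each stage. The regions behind them were not all the same, since 4 of the 8 regions of Egr1 came from a single DP list. Per 10000 peaks Egr1 had 1.51 and 0.852 in DP 1 and DP 2, against 0.515 and 0.604 in DN 1 and DN 2. Its gene end lay in a region of all 4 lists (34860451 to 34861450). The authors' p-values are given here list by list, and no difference between lists is drawn from them, since the lists differ in length and in their range of p-values. In DP 1 and DP 2 the peak there had the smallest p-value, 1e-12, shared by 6.40% and 4.45% of the peaks of these lists. In DN 1 and DN 2 it had p-values of 7.61e-05 and 8.61e-05 and stood at 25.9% and 24.5% of the list, counted from the best. A second region of all lists lay 4832 bp before the span. Both DP-only regions of Egr1 were distal: 1 lay 20632 bp before the span (34840251 to 34840900), with its midpoint 14 bp from an end of Reep2, and 1 lay 22469 bp after it (34887051 to 34887800).

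Egr2 (chromosome 10, 67534469 to 67542188), which acts with EGR3 downstream of receptor signals in thymocytes, had 3 and 4 peaks in DP 1 and DP 2, against 7 and 4 peaks in DN 1 and DN 2. It was the one gene of the 10 with the higher mean in DN lists, 3.5 ± 0.71 against 5.5 ± 2.12 (SD, n = 2), and the groups touched at 4. Its two-sided exact permutation p was 0.667. The number came partly from short peaks of DN 1 along the first part of the gene. DN 1 alone held 3 separate regions there, at 906, 1731 and 2231 bp from the lower end, with p-values from 0.000303 to 0.000601. The latter is the largest p-value of DN 1. In the better 50% of each list, Egr2 had a mean of 2.5 peaks in each stage. The region that covers 4 of its 5 listed starts (67536901 to 67538050) was held by all lists, and so was a region 7162 bp past the span (67548801 to 67549900). That second region lies 395 bp from an end of Ado. Counted as regions held per list, Egr2 had 3 and 4 in DP 1 and DP 2, against 6 and 2 in DN 1 and DN 2.

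Egr3 (chromosome 14, 70077317 to 70082613) had 3 and 6 peaks in DP 1 and DP 2, against 1 peak in each DN list, with no overlap between the stages. The gene-end region was DP-only (70076551 to 70077000). Its p-value in DP 1 was 0.000487, the largest of that list, and that in DP 2 was 0.000390, at 53.0% of the list. The single peak of each DN list lay in a region of all lists 2442 bp before the span (70074401 to 70075350). It stood at 14.5% and 5.14% of DP 1 and DP 2 and at 43.3% and 77.9% of DN 1 and DN 2, counted from the best of each list. The other DP-only region, 17462 bp after the span, had its midpoint 14 bp from an end of Bin3.

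Nr4a1 (chromosome 15, 101253902 to 101274795), which encodes NUR77, a nuclear receptor widely used to report T cell receptor signals, showed the largest difference of the 10 within 30 kb. With a window of 100 kb its difference of 13 peaks was below those of Junb (15.5) and Dusp6 (13.5). Within 30 kb it had 8 and 14 peaks in DP 1 and DP 2, against 3 and 0 peaks in DN 1 and DN 2. All values of the DP lists were above those of the DN lists, although the DP lists also differed from each other. Means were 11 ± 4.24 peaks in DP and 1.5 ± 2.12 peaks in DN lists (SD, n = 2 each). Its window held 13 regions, of which 4 were DP-only and 0 were held by all lists. It was the single window of the 10 with no region common to the 4 lists, since DN 2 had no peak in it. The start shown above lay in a DP-only region (101266401 to 101267150), with p-values of 1.85e-05 and 2.84e-05 in DP 1 and DP 2. Another DP-only region covered the lower end of the span, 12746 bp from the listed start (101253801 to 101254400). The others lay 12927 bp before the span (101240651 to 101241300) and 9255 bp after it (101283551 to 101284550). The downstream one of these lies 251 bp from an end of Atg101. A further 3 regions were held by both DP lists and DN 1. Of these, the region 7502 bp before the span (101246001 to 101246800) had the smallest p-value of the list, 1e-12, in both DP lists, and its p-value in DN 1 was 8.05e-05. The region inside the gene (101258151 to 101259000) had p-values of 1.15e-08 and 1.31e-05 in DP 1 and DP 2, and in DN 1 it was at the largest p-value of the list, 0.000601.

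Nr4a3 (chromosome 4, 48045078 to 48086447), a relative of Nr4a1 that can stand in for it in thymocytes, had 4 and 6 peaks in DP 1 and DP 2, against 3 and 1 peaks in DN 1 and DN 2. The stages did not overlap, but DP 1 and DN 1 differed by a single peak. Its start region (48044751 to 48045450) was held by both DP lists and DN 1, as was a region 5228 bp before the span. A region 1903 bp before the span (48042601 to 48043750) was held by all lists. The 1 DP-only region lay inside the gene, 28245 bp from the listed start (48073251 to 48073850), with p-values of 6.53e-05 and 0.000200 in DP 1 and DP 2. No other protein-coding gene lies in this window.

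Fos (chromosome 12, 85473890 to 85477274), the prototype of the family, differed between the stages at its start and little in number. It had 4 peaks in each DP list, against 3 and 4 peaks in DN 1 and DN 2, and the two-sided exact permutation p was 1. The start region (85473251 to 85474150) was DP-only, with p-values of 2.93e-05 and 1.28e-05 that stood at 16.8% and 7.96% of DP 1 and DP 2. The DN peaks lay elsewhere. A region 18540 bp before the span (85454901 to 85455800) and one 8751 bp after it (85485601 to 85486450) were held by all lists. The first of these had p-values of 1e-12, the smallest of the list, in both DP lists, and 7.95e-06 and 8.61e-05 in DN 1 and DN 2. A second DP-only region lay 10651 bp after the span (85487701 to 85488150), and its p-value was the largest of the list in both DP lists. DN 2 held 4 peaks in only 2 regions, because peaks of 1 list can overlap. In regions held, Fos had 4 in each DP list, against 3 and 2 in DN 1 and DN 2.

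Jun (chromosome 4, 95049036 to 95052222) was open in both stages. It had 3 and 4 peaks in DP 1 and DP 2, against 4 and 2 peaks in DN 1 and DN 2, so the stages overlapped (two-sided exact permutation p = 1). All of its 4 regions lay within 1103 bp of the gene, and 0 were DP-only. The start region (95051901 to 95052950) was held by all lists, and its peak was among those with the smallest p-value, 1e-12, in each of the 4. The next region upstream (95053001 to 95053650) was also held by all, and it stood at 9.93% and 7.27% of DP 1 and DP 2 and at 8.14% and 5.90% of DN 1 and DN 2.

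Junb (chromosome 8, 84976909 to 84978748), an AP-1 partner that often opposes JUN, had 8 and 11 peaks in DP 1 and DP 2, against 5 and 2 peaks in DN 1 and DN 2. The stages did not overlap. Both ends of this short gene had a peak in both DP lists and DN 1, and neither end had one in DN 2. At the start (84978451 to 84979100) the p-values were 1.62e-05 and 2.28e-06 in DP 1 and DP 2, and 1.02e-05 in DN 1. At the other end they were 9.12e-06 and 7.70e-06 in DP 1 and DP 2, and 0.000303 in DN 1. Its DP-only regions lay 1327 bp (84979901 to 84980250) and 19302 bp (84997751 to 84998350) after the span. Junb lies on the minus strand, so these regions were upstream of its start. This is a gene-dense window, and the second of these regions lies inside Hook2. Regions of all lists lay 10809 bp before the span, inside Rnaseh2a, and 11527 bp after it, inside Hook2.

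Dusp5 (chromosome 19, 53529145 to 53541809), which encodes a nuclear ERK phosphatase, had 4 and 5 peaks in DP 1 and DP 2, against 3 and 1 peaks in DN 1 and DN 2. The stages did not overlap, by a single peak between DP 1 and DN 1. In the better 50% of each list the stages overlapped, and so they did per 10000 peaks, with 1.01 and 0.710 in DP 1 and DP 2, against 0.773 and 0.302 in DN 1 and DN 2. The start region with the adjoining CArG boxes (53528701 to 53529600) was held by both DP lists and DN 1. Its p-values were 9.98e-06 and 7.94e-06 in DP 1 and DP 2, and 6.19e-05 in DN 1. The DP-only region lay 9095 bp before the span (53519751 to 53520350), and a region of all lists lay 25995 bp before it.

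Dusp6 (chromosome 10, 99263231 to 99267489), which encodes a cytoplasmic ERK phosphatase, had 8 and 9 peaks in DP 1 and DP 2, against 2 and 3 peaks in DN 1 and DN 2. The stages were apart by 5 peaks or more, and the means were 8.5 ± 0.71 and 2.5 ± 0.71 (SD, n = 2 each). The gap was smaller in regions held, with 6 and 7 in DP 1 and DP 2, against 2 and 3 in DN 1 and DN 2. The start itself was open in both stages (99262801 to 99263500), with p-values of 2.59e-06 and 1.13e-06 in DP 1 and DP 2, and 2.91e-07 and 1e-12 in DN 1 and DN 2. The added DP peaks were distal, 7 and 8 in DP 1 and DP 2, against 1 and 2 in DN 1 and DN 2. DP-only regions lay 18281 bp before the span (99244701 to 99245200) and 17536 bp after it (99284751 to 99285300). The region 1481 bp before the span (99261251 to 99262250) was held by both DP lists and DN 2. A region 21331 bp before it (99241251 to 99242550) was held by all.

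A list of 36 related genes holds other early response genes, regulators of their transcription and feedback inhibitors of the Ras pathway, all of which were in the gene table. In 23 of these every DP list had more peaks than every DN list, against 36.4% of all genes, and in 0 was the reverse true, against 3.3%. Their median difference was 3.5 peaks. Their median number of peaks was 5 and 6 in DP 1 and DP 2 and 3 and 1 in DN 1 and DN 2. The shares of all genes were again not matched for number of peaks. At gene ends, 13 were held by all lists, against 21.7% of all genes, and 6 by both DP lists alone, against 9.62%. No gene-end peak in any list was found for 4 of the 36, against 9779 of all 21887 genes. The 6 with the largest differences are given by peaks in DP 1 and DP 2 against DN 1 and DN 2. Btg2, an antiproliferative early response gene, had 13 and 15 against 3 and 1. Csrnp1 had 10 and 12 against 2 and 0. Maff, a small MAF factor, had 7 and 9 against 0 in each. Spred2, an inhibitor of Ras signalling, had 14 in each against 9 and 3. Dusp2, a nuclear phosphatase of MAP kinases, had 7 and 9 against 2 and 0. Fosl1, an AP-1 member, had 5 and 8 against 1 and 0. In each of these 6 the stages did not overlap. Nr4a2, the remaining NR4A gene, had 5 and 6 against 6 in each, and Egr4 had 0 in all lists. The numbers of peaks nearest to the median of the 10 genes over the 4 lists (4 and 6 in DP, 3 and 2 in DN lists) were those of Klf2, with 5 and 6 against 3 and 2. Btg1 followed with 5 and 6 against 5 and 2, and then Dusp4 with 5 and 5 against 3 and 0. Likeness was measured as Euclidean distance, which was 1, 2.24 and 2.45 peaks for these 3 genes over 4 lists, and Dusp4 was tied with 4 other genes.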

How the data were processed

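The deposited files are 1 ATAC-seq peak list per sample, so peaks were called per sample. Per the submitters' processing notes, mm10, Bowtie2 and Picard were used, with no versions. The peak caller is known only from the deposited lists' name (PeakDEck). Its settings, the read filters, the handling of duplicates and a shift of read ends, if any, were not given in the sources used here. For each peak, the deposited p-value is the authors' own, and it was printed per list and ranked within its list, never compared between lists. A large share of peaks, 29.1% to 44.2%, was tied at the largest p-value of its list. The smallest p-value, 1e-12 in each list, was shared by 2.19% to 6.40% of its peaks. Start positions fell on a 50 bp grid.

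Peaks on chromosomes 1 to 19, X and Y were assigned to genes and merged at 1 bp of overlap. Gene spans and starts came from RefSeq tables of GRCm38.p6. Coordinates are counted from 1. Pairs of lists shared 1.33% to 6.25% of identical peaks of the shorter list, so none was a copy. The 10 genes and the lists were chosen with earlier results of these data known. All 10 genes are named; of the related genes, the 6 with the largest differences and the 3 nearest to the median, plus Nr4a2 and Egr4, chosen after their values were seen. Some marker genes are not reported here. No test across genes was made. Merging was tried on simulated lists of equally wide peaks with small shifts. These are simpler than the deposited lists, so the trial says little about merging there. Alternatives are given in the closing section. Figures were drawn with matplotlib 3.10.9, and values were computed in Python 3.11.15 with scipy 1.17.1, pandas 2.3.3 and numpy 2.4.6.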

Additional observations from a re-analysis of the deposited data

How the results depend on the processing

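Depth is unknown, and with 2 lists a stage the two-sided exact permutation test gives no p below 0.333, so these values describe 4 lists. The mean difference of 3.35 peaks per gene, DP minus DN, was 1.8 with a window of 10 kb, 6.85 with 100 kb and 0.405 in peaks per 10000. With 10 kb, DP-only regions numbered 8 and distal ones 5. With 100 kb there were 28 DP-only regions (25 distal), 1 DN-only region and 25 regions of all lists. Leaving out each list in turn gave mean differences of 2.45 to 4.25 peaks. The count of genes with more peaks in every DP list was then 7 to 8, against 39% to 55% of all genes. DP-only regions numbered 17 to 31, with 14 to 28 distal and 3 to 7 gene-end ones. There were 0 to 5 DN-only regions and 15 to 25 regions of all lists. With 1 list fewer the rules for these counts are looser. The count of genes could not fall below 7, and the counts of regions could hardly fall. Jun had differences of -1.5 peaks with 100 kb and -0.5 without DN 2, and per 10000 peaks Jun had -0.155 and Fos -0.202; the cause was not tested. Egr1, Egr3, Nr4a1, Nr4a3, Junb, Dusp5 and Dusp6 had the higher mean in DP lists in each of 11 alternatives, and Egr2 in 0 of them. Egr2 had the higher mean in DN lists in 10 of the 11. In the better 50% of each list its means were equal, at 2.5 peaks. The other 62 of 78 recomputed totals over the genes (2 of them by the listed starts of 8 genes) stayed within the limits set (1.5 times, or 1 SD for the mean). Counting regions held in place of peaks and scaling the count of genes by list length were chosen after seeing the data. As a replicate block, differences within numbers 1 and 2 averaged 3.35 peaks, which equals the unpaired difference by arithmetic. In 7 genes both pairs were higher in DP, and this count could not fall below the 7 genes without overlap. The block is counted among the 62 totals and the 11 alternatives, but its outcome there was fixed in advance. The counts without 1 list are also among the 78 totals, and in practice only a rise could take them past the limits. The numbers mark no shared source in the labels; deviations of same-numbered lists correlated at 0.361 over genes, a value that 2 lists a stage make equal for both pairs.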

Other observations

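The windows also took in ends of neighbouring genes. Of 8 distal regions with a midpoint within 1000 bp of another gene's end, 3 were DP-only: those at Reep2 (14 bp), Bin3 (14 bp) and Atg101 (251 bp). The region at Ado (395 bp) was held by all lists. The other 4 came from 1 list each, at Ado (355 bp, DP 1), Grasp (82 bp, DP 2), Atg101 (976 bp, DP 1) and Prdx2 (103 bp, DP 2). Which gene such a region serves was not tested.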
